A study of Homo sapiens with 16 samples.

Results

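Genes for proteins of the mitochondrial ribosome made up 74 of the 18132 genes measured on 16 expression arrays of a human leukaemia cell line. Members were the genes whose platform symbol begins with MRPL or MRPS and a digit, taken from probe sets assigned to a single gene. Where a gene had several probe sets, the brightest on average over the 16 arrays stood for it. The 164 probe sets that qualified gave 47 MRPL and 27 MRPS symbols, of which 28 had 1 probe set and 46 had several. By the known place of each protein, 49 members belong to the large subunit and 25 to the small subunit, since MRPS18A and MRPS30 are large subunit proteins despite their names. The antisense gene MRPL20-AS1 was left out, and MRPL23, MRPL53 and MRPS24 had only probe sets shared by several genes. MRPS36, known as a subunit of oxoglutarate dehydrogenase, is listed as KGD4 on the platform and was no member. No filter on dim genes was applied, so all 74 members were tested.

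The arrays held total RNA of Nalm6, a line of acute lymphoblastic leukaemia of the B-cell precursor type, in 4 groups of 4 arrays. Cells were either controls or carried the label of active, overexpressed CASP1, and each kind was left without treatment or kept for 24 hours with prednisolone, a synthetic glucocorticoid. The question in the series title is whether CASP1, the caspase of the inflammasome, cleaves the glucocorticoid receptor and so makes leukaemia cells resistant to glucocorticoids. The sources used here do not give the vector, the number of clones, the form of the control or the dose. The samples' own labels name a form of prednisone, whereas the protocol names prednisolone. The labels do not say whether the 4 arrays of a group came from separate cultures, so each p-value speaks of the spread between these samples alone.

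The mitochondrial ribosome translates the few messenger RNAs made from mitochondrial DNA, which encode core subunits of the respiratory chain and of ATP synthase. Its RNAs come from mitochondrial DNA, while its proteins are encoded in the nucleus, made in the cytosol and imported. Some of these proteins have relatives in bacterial ribosomes, and others are particular to mitochondria. Glucocorticoids slow growth and induce death of B-cell precursor leukaemia cells, and the genes of mitochondrial translation are known to follow growth programmes such as that of MYC.

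Values are log2 signals after RMA, which brings arrays to a common scale, and a difference of 1 means a 2-fold change. CASP1 signal went against the labels. It was 7.60 to 7.95 in untreated and 6.86 to 7.08 in treated control cells, against 5.45 to 6.05 in untreated and 4.79 to 5.38 in treated cells labelled CASP1. Differences between the lines are therefore given for cells labelled CASP1, not for cells with more CASP1. Exchanged labels, and an introduced CASP1 that the probes do not read, were not tested and cannot be told apart here. If the labels were exchanged, every line difference and the interaction would change sign and the prednisolone results of the lines would change places. Over genes, arrays of a group correlated at 0.9853 to 0.9978. The arrays with replicate number 1 shared deviations from their group means (r between 0.19 and 0.51 for each pair of groups), and counts without them are given beside the results. Of the B-cell precursor markers, 7 had group means of 6.45 to 13.0, while 4 T-cell markers lay at 3.14 to 6.68, 3 myeloid markers at 2.90 to 4.43 and 2 erythroid markers at 4.09 to 5.16.

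The lowest within-group SD of a member was 0.0325, the median was 0.142 and the highest was 0.277. The median signal over the 74 members lay between 8.99 and 9.06 on the 4 arrays of untreated control cells and between 8.74 and 8.95 on those of treated control cells. It lay between 8.92 and 9.01 in untreated and between 8.82 and 8.94 in treated cells labelled CASP1. Untreated control cells thus stood above treated control cells on every array, whereas treated and untreated cells labelled CASP1 overlapped. Untreated control cells had the highest of the 4 group means for 41 of the 74 members, against 25.2% of all genes. In bulk RNA a lower signal from every cell and a smaller share of cells with a high signal cannot be told apart.

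In control cells, prednisolone was followed by lower signal of many mitochondrial ribosomal protein genes and by a called rise of none. At an adjusted p under 0.05 in limma, 16 of 74 members fell (21.6%), 12 of 49 in the large and 4 of 25 in the small subunit. Over all genes 8.43% fell and 5.73% rose. Among the 8827 genes at least as bright as the dimmest member, 15.8% fell and 9.83% rose. Of the members, 58 of 74 had a difference below 0, the median difference was -0.16 and that of all genes was -0.0146. At an unadjusted p under 0.05, 32 members were lower and 3 were higher, against 2473 and 1800 of all 18132 genes. Of the 8827 genes at least as bright as the dimmest member, 2083 were lower and 1415 higher at that threshold. On 25 members every treated array lay below every untreated array, and on 3 every treated array lay above, against 11.8% and 9.07% of all genes.

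MRPL17, a relative of a bacterial protein near the exit of the peptide tunnel, had the largest fall. Its signal was 9.41, 9.39, 9.35 and 9.45 on the untreated arrays of control cells and 8.45, 8.23, 7.95 and 8.21 on the treated arrays. All treated arrays lay far below all untreated ones. The difference was -1.19 ± 0.108 (SE, n = 4 and 4), a 2.28-fold lower signal, with an adjusted p of 3.7e-07 (limma). A second, dimmer probe set of MRPL17 differed by -0.714 with an adjusted p of 0.025 over all probe sets assigned to 1 gene.

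Promoters are shown because many members moved the same way in this comparison. RefSeq windows of GRCh38.p14, from 250 bases before to 50 bases after the first listed start of each gene, were found for 67 of the 74 members. MRPL10, MRPL13, MRPL15, MRPL2, MRPL21, MRPL35 and MRPS28 had none. Both strands were searched for exact letters of 4 motifs known for growth and mitochondrial genes. The ETS core CCGGAAG, bound by factors such as GABPA, was in 28 windows (41.8%), against 10.7% of all 27305 windows and 14.2% of the 15843 windows of coding genes. The extended motif of YY1, a zinc finger factor, was in 9 (13.4%), against 0.916% of all and 1.37% of coding windows. The palindromic core of NRF1, whose letters stand in capitals in the MRPL17 sequence, was in 1 (1.49%), against 1.36% of all and 1.75% of coding windows, and the E-box CACGTG, bound by MYC and related factors, was in 6 (8.96%), against 7.43% and 8.88%. Of these windows, 38 held any of the motifs, 29 held none, 3 held both ETS and YY1 motifs, and no motifs overlapped. Of the 13 members with a window that fell with prednisolone in control cells, 5 held the ETS core, 2 the E-box, 1 the YY1 motif and 1 the NRF1 core. A match describes the letters and is no evidence of binding.

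The 250 bases before the start are printed for the member with the largest fall and for 2 that fell and hold the ETS core, in capitals where a motif matches. They lie at chr11:6683341-6683590 on the minus strand for MRPL17, at chr20:3045802-3046051 on the plus strand for MRPS26 and at chr17:50373185-50373434 on the minus strand for MRPL27. The NRF1 core of MRPL17 begins 81 bases before the start. The ETS core of MRPS26, on the other strand, begins 37 bases before it, and those of MRPL27 begin 52 and 8 bases before it.
MRPL17: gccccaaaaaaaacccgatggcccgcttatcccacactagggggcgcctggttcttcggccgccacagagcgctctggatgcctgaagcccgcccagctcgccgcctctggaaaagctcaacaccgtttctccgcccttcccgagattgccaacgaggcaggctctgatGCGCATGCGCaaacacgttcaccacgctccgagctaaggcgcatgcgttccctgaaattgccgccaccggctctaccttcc
MRPS26: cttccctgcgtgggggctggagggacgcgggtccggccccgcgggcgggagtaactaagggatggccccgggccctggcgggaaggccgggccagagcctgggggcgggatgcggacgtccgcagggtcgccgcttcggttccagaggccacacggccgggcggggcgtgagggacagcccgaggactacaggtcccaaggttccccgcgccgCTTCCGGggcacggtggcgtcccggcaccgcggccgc
MRPL27: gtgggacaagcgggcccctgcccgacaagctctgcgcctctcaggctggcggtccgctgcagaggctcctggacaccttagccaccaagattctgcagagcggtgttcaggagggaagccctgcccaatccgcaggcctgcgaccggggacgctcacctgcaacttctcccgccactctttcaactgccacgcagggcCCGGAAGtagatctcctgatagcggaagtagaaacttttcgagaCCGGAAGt

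MRPS6, a small subunit protein with a bacterial relative, read 8.04, 7.94, 8.07 and 7.88 in untreated control cells. With prednisolone it read 7.35, 7.38, 7.28 and 7.44. The groups lay clearly apart, with a difference of -0.62 ± 0.109 (SE) and an adjusted p of 0.00051 in limma. MRPL2, which lies beside the peptidyl transferase centre, read 7.44, 6.998, 6.84 and 6.88 untreated and 6.82, 6.40, 6.28 and 6.19 treated. Replicate 1 was the highest array of each group, and the groups were separated only narrowly. The difference was -0.62 ± 0.16 (SE, adjusted p = 0.013 in limma). Without replicate 4 of treated control cells it was -0.539, with an adjusted p of 0.052. MRPL24, a neighbour of the tunnel exit, read 8.90, 8.88, 8.89 and 8.998 untreated and 8.60, 8.25, 8.19 and 8.29 treated. All treated arrays were lower, by -0.59 ± 0.102 (SE, adjusted p = 5e-04 in limma).

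MRPL39, a protein particular to mitochondria that resembles threonyl-tRNA synthetase, read 8.98, 9.23, 9.02 and 9.06 untreated and 8.60, 8.59, 8.53 and 8.52 treated. The treated arrays lay close together and below all untreated ones, and the difference was -0.52 ± 0.0841 (SE, adjusted p = 0.00026 in limma). MRPL14, which faces the small subunit, read 9.02, 9.19, 9.16 and 9.26 untreated and 8.78, 8.62, 8.54 and 8.64 treated. The groups did not overlap, and the difference was -0.51 ± 0.107 (SE, adjusted p = 0.0024 in limma). The other 10 members that fell differed by -0.49 to -0.25. They were MRPS26, MRPL48, MRPS28, MRPL13, MRPS25, MRPL27, MRPL16, MRPL52, MRPL22 and MRPL37. Of these, only MRPS25 had overlapping groups.

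The fall was not limited to proteins of 1 evolutionary origin. Among the 45 members with a bacterial relative 10 fell, with a median difference of -0.112, and among the 29 particular to mitochondria 6 fell, with a median of -0.194. The median was -0.132 in the large and -0.194 in the small subunit. MRPS22, particular to mitochondria, had the largest difference above 0. It read 9.49, 9.48, 9.50 and 9.58 untreated and 9.58, 9.74, 9.73 and 9.80 treated, a difference of 0.20 that did not pass the test (adjusted p = 0.12 in limma). The 3 MRPS18 genes and MRPS30 were not called. MRPS18A and MRPS30 of the large subunit differed by 0.02 and -0.03, and MRPS18B and MRPS18C of the small subunit by -0.06 and -0.09. Of the 9 members that fell and had several probe sets, 8 had all of them on the same side of 0, and 0 had a call in the other direction.

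The count of falls moved with the arrays. Without replicate 1 of all groups, 30 members fell and 2 rose, MRPL9 (0.20) and MRPS22 (0.24). In that setting 13.1% of all genes fell and 8.8% rose. Of the 8827 genes at least as bright as the dimmest member, 2124 fell and 1312 rose. Without replicate 3 of treated control cells, 10 members fell, while 6.54% of all genes did. Of the 67 cytosolic ribosomal protein genes, 0 fell and 1 rose in control cells, and their median difference was 0.00908 (limma); at an unadjusted p under 0.05, 1 was lower. Of the 80 nuclear genes for respiratory chain subunits, 8 fell and 0 rose, with a median of -0.128, and at an unadjusted p under 0.05 26 were lower and 1 higher. The difference between these sets and the members was not tested.

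**Figure D1:**
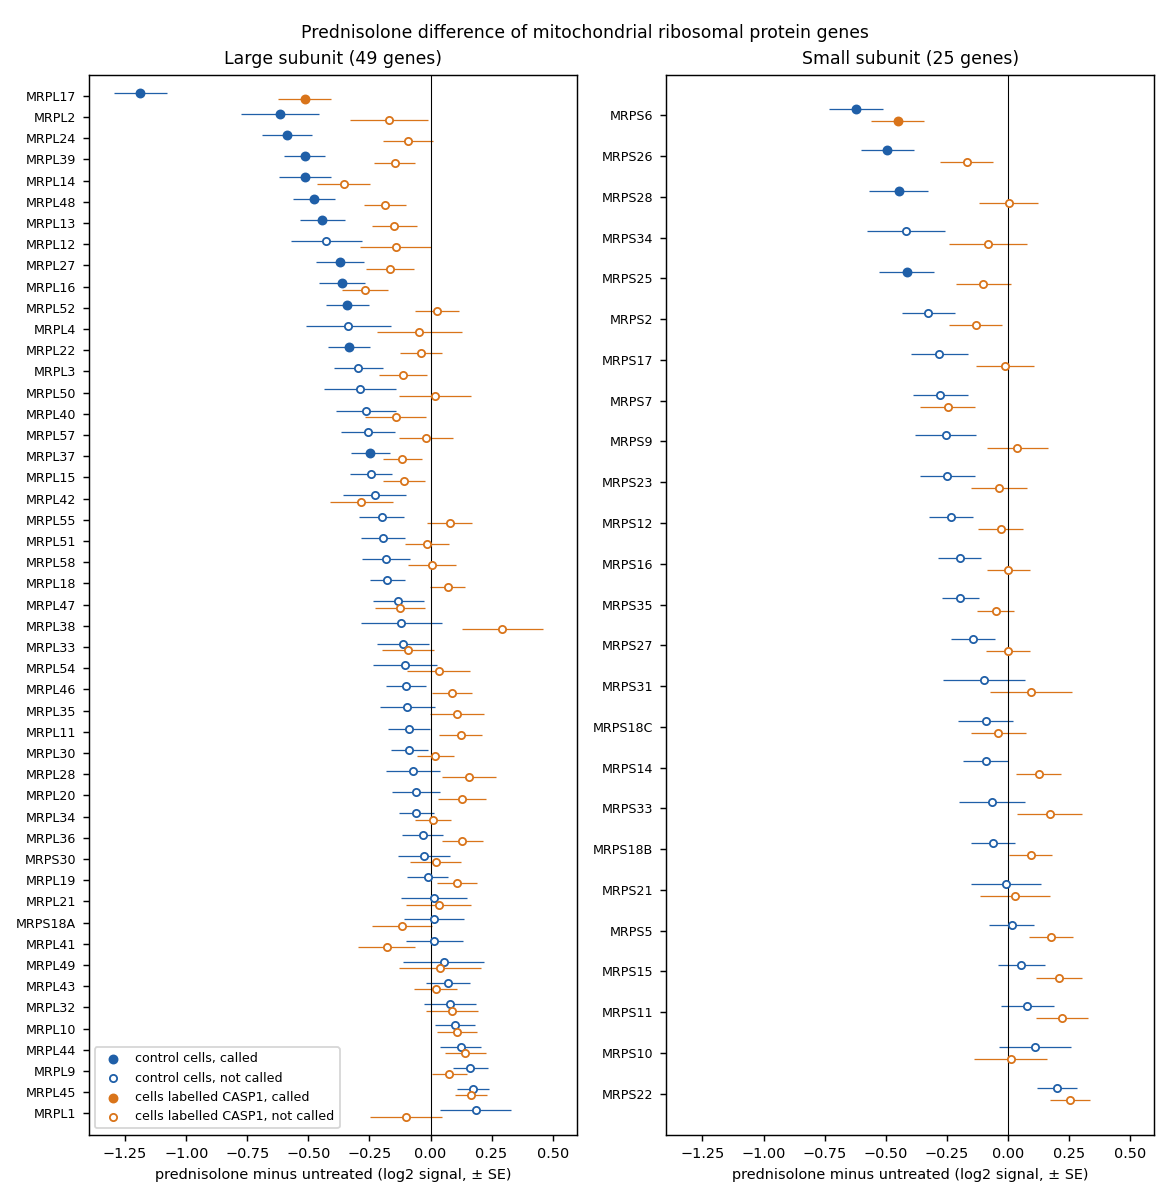
Prednisolone minus untreated in log2 signal (x axis) for each of the 74 members (y axis), in control cells (blue) and cells labelled CASP1 (orange). Points are fitted differences with standard errors, and filled points had an adjusted p under 0.05 in limma; 16 blue points and 2 orange points are filled, all of them left of 0.

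In cells labelled CASP1 the same treatment was followed by a called fall of 2 members, MRPL17 and MRPS6, and by no called rise. Over all genes 6.34% were called, 3.35% lower and 2.99% higher. Among genes at least as bright as the dimmest member, 6.41% were lower and 4.8% higher, against 2.7% and 0% of the members. The median member difference was 0.0033 and that of all genes 0.0178, with 36 of 74 members below 0. At an unadjusted p under 0.05, 7 members were lower and 3 higher (limma), against 1627 and 1584 of all 18132 genes. Of the 8827 genes at least as bright as the dimmest member, 1416 were lower and 965 higher at that threshold. Every treated array lay below every untreated array for 3 members and above for 2, against 6.56% and 5.31% of all genes.

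MRPL17 read 8.38, 8.70, 8.64 and 8.68 untreated and 8.04, 8.30, 7.94 and 8.06 with prednisolone in cells labelled CASP1. The groups did not overlap, but replicate 1 of the untreated and replicate 2 of the treated arrays came close to each other. The difference was -0.52 ± 0.108 (SE, adjusted p = 0.006 in limma). MRPS6 read 8.05, 8.02, 7.88 and 7.97 untreated and 7.94, 7.39, 7.43 and 7.36 treated. Replicate 1 of the treated arrays lay among the untreated arrays, and the other 3 were clearly lower. The difference was -0.45 ± 0.109 (SE, adjusted p = 0.016 in limma), and -0.563 (adjusted p = 2e-04) without replicate 1 of all groups. The control and the CASP1-labelled comparisons share no arrays. The fit gave each gene 1 residual spread for both, however, so their calls are not independent. Both members called here were among the 16 called in control cells. That is 100% of the smaller list and 12.5% of the larger, and no overlap over all genes is given beside it.

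MRPL14 did not pass the test here. It read 8.35, 8.88, 8.73 and 8.75 untreated and 8.50, 8.25, 8.29 and 8.25 treated, with replicate 1 running against the other 3, and differed by -0.36 (adjusted p = 0.057 in limma). Without replicate 1 of all groups, 6 members fell. These were MRPL14 (-0.526), MRPL16 (-0.247), MRPL17 (-0.573), MRPL42 (-0.373), MRPL48 (-0.302) and MRPS6, and MRPL38 rose (0.366). In that setting 6.15% of all genes fell and 5.77% rose. Of the 8827 genes at least as bright as the dimmest member, 1034 fell and 789 rose. The median member difference was then -0.0674. Without replicate 3 of treated cells labelled CASP1, MRPL17 fell (-0.466) and MRPS22 rose (0.301), and without replicate 4 of the same group only MRPL17 fell; MRPS6 was called in neither case, nor with only the groups compared in the fit.

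**Figure D2:**
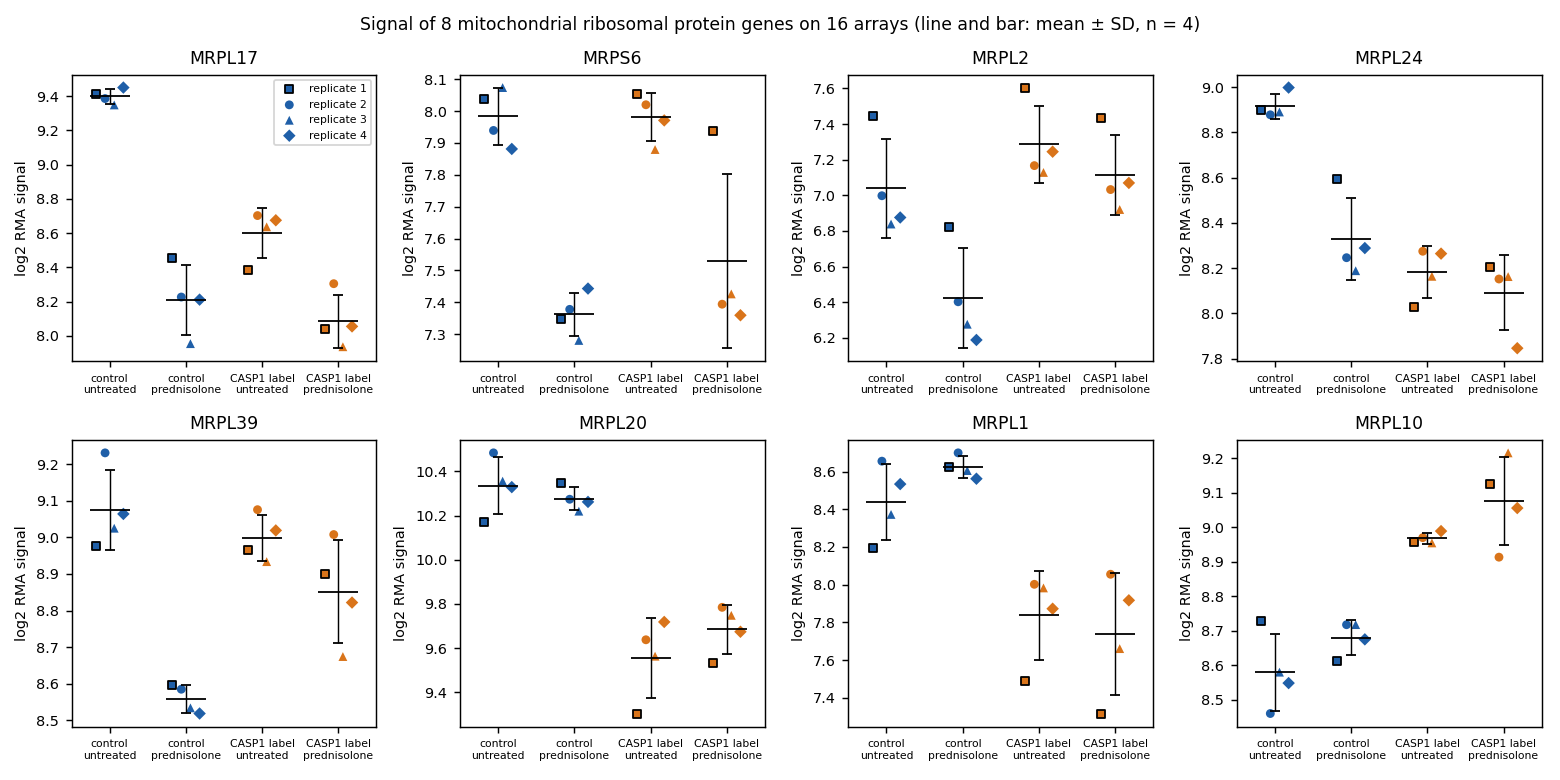
Log2 RMA signal (y axis) of 8 members on all 16 arrays, by group (x axis), with a marker shape for each replicate number and the group mean ± SD (n = 4). MRPL17 is highest in untreated control cells at 9.35 to 9.45, and replicate 1 (square) stands above the other 3 arrays for MRPL2 in every group.

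Whether the response differed between the lines was tested with the interaction, which subtracts the prednisolone difference of control cells from that of cells labelled CASP1. MRPL17 was the only member called. Its interaction was 0.673 ± 0.152 (SE), with a 95% interval of 0.353 to 0.993 and an adjusted p of 0.045 in limma. On its brightest probe set, used here, the fall of MRPL17 was thus smaller in cells labelled CASP1. Over all genes 0.888% were called, 0.524% above 0 and 0.364% below. Leaving out any of 13 of the 16 arrays ended it, at values of 0.587 to 0.707, and it held only without replicate 1 of treated control cells or without replicate 1 or 3 of treated cells labelled CASP1. It was also lost with quantile normalization (0.664) and with centring on the 75th percentile (0.669). With the mean of its probe sets the value was 0.27, and the dimmer probe set gave -0.134. On the brightest probe set, the untreated level of MRPL17 was lower in cells labelled CASP1, and the treated levels of the lines overlapped. The dimmer probe set was lower with the CASP1 label without treatment (-0.818) and with it (-0.952). The latter had an adjusted p of 0.0037 in limma over all probe sets assigned to 1 gene. With prednisolone the dimmer probe set differed by -0.714 in controls and by -0.847 under the CASP1 label.

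Across the members, 65 of 74 interactions were above 0, against 57.4% of all genes, with a median of 0.175 against 0.0345. At an unadjusted p under 0.05, 11 members were above 0 and 0 below (limma), against 1155 and 716 of all 18132 genes. Of the 8827 genes at least as bright as the dimmest member, 731 were above 0 and 541 below at that threshold. In the small subunit 24 of 25 were above 0 and in the large subunit 41 of 49. Of the respiratory chain genes 75 of 80 were above 0, with a median of 0.135, and of the cytosolic ribosomal protein genes 48 of 67, with a median of 0.0162. Limma called 0 in both sets, and at an unadjusted p under 0.05 5 and 1 genes were above 0 and 0 below. Members share arrays and move together, so these shares describe the 16 arrays and carry no test. The interaction also uses the untreated control arrays of the prednisolone comparison in control cells and of the untreated line comparison. Untreated control cells had the highest group mean for 41 of the 74 members, so the shifts in these comparisons are not separate results. The median was 0.131 without replicate 1 of all groups. Then 3 members were called, namely MRPL17 (0.691), MRPL24 (0.50) and MRPL2 (0.442). In that setting 2.72% of all genes were called above 0 and 1.29% below. Of the 8827 genes at least as bright as the dimmest member, 419 were called above 0 and 194 below. MRPL17 (0.754) and MRPL24 (0.583) were called without replicate 1 of treated control cells, and without replicate 1 of treated cells labelled CASP1 the median was 0.109.

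**Figure D3:**
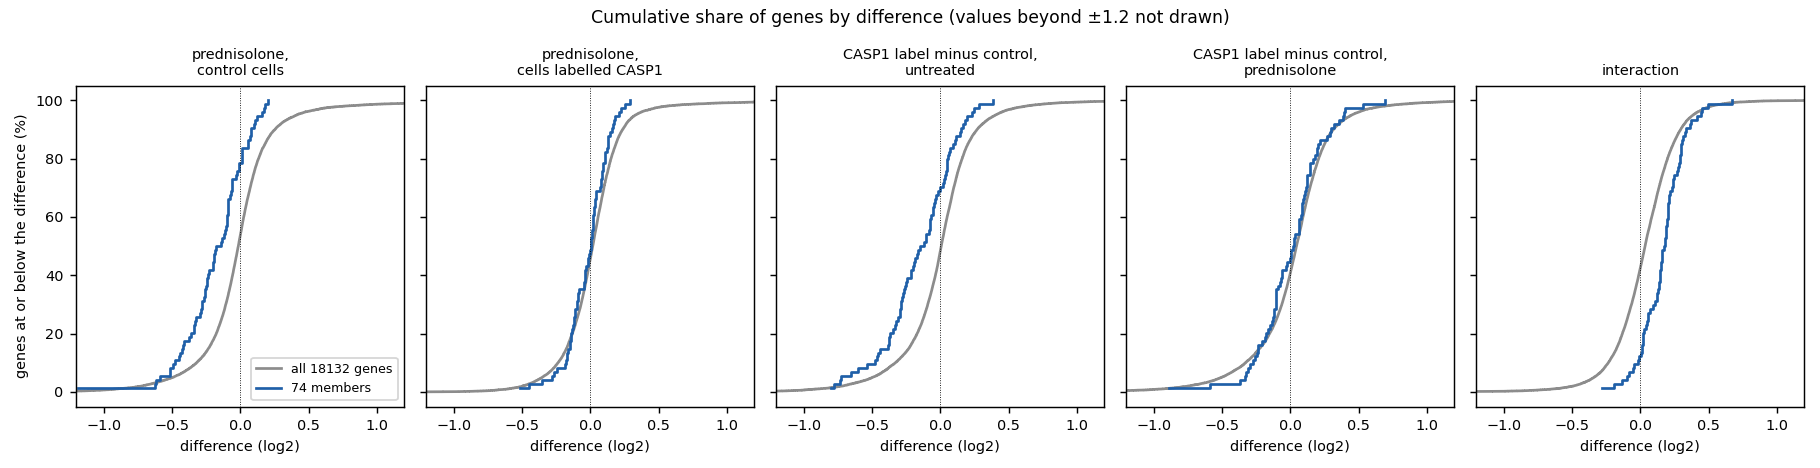
Cumulative share of genes in percent (y axis) at or below each log2 difference (x axis), for the 74 members (blue) and all 18132 genes (grey), in the 4 comparisons and the interaction. The blue curve lies left of the grey for prednisolone in control cells (medians -0.16 and -0.0146) and for the untreated lines (-0.132 and 0.00665). It lies right of the grey for the interaction (0.175 and 0.0345). These shifted comparisons all use the same untreated control arrays.

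Without treatment, cells labelled CASP1 had lower signal than control cells for 23 members and higher for 1. Over all genes 8.2% were called lower and 5.87% higher, and among genes at least as bright as the dimmest member 14.6% and 9.79%. The lower members were 14 of 49 in the large and 9 of 25 in the small subunit, and the median difference was -0.132 against 0.00665 over all genes. On 27 members all arrays labelled CASP1 lay below all control arrays and on 4 above, against 11.8% and 9.89% of all genes. This comparison uses the same untreated control arrays as the prednisolone comparison in control cells, so no count of shared calls is given.

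MRPL17 was lower in untreated cells labelled CASP1 by -0.80 ± 0.108 (SE, adjusted p = 6.2e-05 in limma). MRPL20, a large subunit protein with a bacterial relative, read 10.17, 10.48, 10.36 and 10.33 in control cells and 9.30, 9.64, 9.56 and 9.72 in cells labelled CASP1. Replicate 1 was the lowest of each group and the groups lay far apart, with a difference of -0.78 ± 0.0969 (SE, adjusted p = 3e-05 in limma). Its 2 dimmer probe sets differed by -0.16 and -0.25 and were not called. MRPL24 read 8.03, 8.27, 8.16 and 8.26 in cells labelled CASP1, all below its control arrays, by -0.73 ± 0.102 (SE, adjusted p = 9e-05 in limma). MRPS28, a small subunit protein, read 8.15, 8.35, 8.16 and 8.25 in control cells and 7.32, 7.53, 7.46 and 7.69 in cells labelled CASP1. It was lower on every array, by -0.72 ± 0.121 (SE, adjusted p = 0.00052 in limma).

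MRPL12 forms the stalk that receives translation factors. It read 8.55, 7.87, 8.07 and 8.20 in control cells and 7.58, 7.55, 7.49 and 7.47 in cells labelled CASP1, with a wide spread among the control arrays. The difference was -0.65 ± 0.145 (SE, adjusted p = 0.005 in limma). MRPL1, part of the mobile stalk where spent transfer RNA leaves, read 8.19, 8.66, 8.37 and 8.53 in control cells and 7.49, 8.002, 7.98 and 7.87 in cells labelled CASP1. The groups did not overlap, and the difference was -0.60 ± 0.147 (SE, adjusted p = 0.0091 in limma). The other 17 lower members differed by -0.54 (MRPL57) to -0.28 (MRPL52). Of the 16 called members with several probe sets, 14 had all of them on the same side of 0. The exceptions were MRPL15 (-0.38 and 0.141) and MRPL19 (-0.455 and 0.0495).

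MRPL10, which anchors the stalk of MRPL12 to the ribosome, was the member called higher. It read 8.73, 8.46, 8.58 and 8.55 in control cells and 8.96, 8.97, 8.95 and 8.99 in cells labelled CASP1. The CASP1-labelled arrays lay very close together, and the difference was 0.39 ± 0.0813 (SE, adjusted p = 0.0031 in limma). MRPL45, which ties the ribosome to the inner membrane and was chosen here after its values were seen, read 8.96, 8.95, 8.97 and 8.99 in control cells and 9.15, 9.201, 9.14 and 9.18 in cells labelled CASP1. All its CASP1-labelled arrays were higher, by 0.20, and the adjusted p was 0.051 (limma).

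The untreated line count was sensitive to scaling and to single arrays. With quantile normalization of the deposited values 13 members were lower and 3 higher (MRPL10, MRPL22 and MRPL45). With centring on the 75th percentile 13 were lower and 2 higher. Over all genes 7.36% were lower and 7% higher with the former, and 6.99% and 7.1% with the latter. Leaving out replicate 1 of untreated cells labelled CASP1 gave 13 lower members, and without replicate 3 of that group there were 12. Without replicate 2 of untreated control cells there were 15, and without replicate 4 of that group 14. Over all genes 6.86%, 6.5%, 6.52% and 6.38% were lower in these settings in turn, against 8.2% with all arrays. Leaving out replicate 1 of all groups gave 22 lower and 5 higher members, the latter MRPL10, MRPL2, MRPL22, MRPL28 and MRPL45. In that setting 12.8% of all genes were lower and 8.53% higher. Of the 8827 genes at least as bright as the dimmest member, 2031 were lower and 1256 higher.

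With prednisolone, members were called in both directions between the lines. In treated cells labelled CASP1 8 members (10.8%) were higher than in treated control cells and 4 (5.41%) lower, against 7.88% and 8.52% of all genes. Among genes at least as bright as the dimmest member, 12.2% were higher and 15.1% lower, so neither share of the members exceeded that of genes as bright. All 12 called members belong to the large subunit. On the brightest probe sets limma called none of the 25 small subunit members. At an unadjusted p under 0.05 0 were higher and 1 lower, against 2799 and 2388 of all 18132 genes. A dimmer probe set was called lower for MRPS28 (-0.912, adjusted p = 0.00027 in limma) and for MRPS14 (-0.505, adjusted p = 0.021). For MRPS21 a dimmer probe set was called higher (0.313, adjusted p = 0.038). Dimmer probe sets were also called for large subunit members that were not called on the brightest. They were lower for MRPL57 (-0.596, -0.967 and -1), MRPL17 (-0.952), MRPL42 (-0.562), MRPL12 (-0.487) and MRPL43 (-0.38). Those of MRPL30 were called in both directions (0.317 and -0.442). Without replicate 1 of all groups, 2 small subunit members were lower. The median member difference was 0.0236 and that of all genes 0.0449. All CASP1-labelled arrays lay above all control arrays for 11 members and below for 4, against 10.1% and 9.56% of all genes.

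MRPL2 had the largest higher value. It read 6.82, 6.40, 6.28 and 6.19 in treated control cells and 7.44, 7.03, 6.92 and 7.07 in treated cells labelled CASP1. The difference was 0.69 ± 0.16 (SE, adjusted p = 0.0059 in limma). MRPL22, which lines the peptide tunnel, read 9.76, 9.77, 9.45 and 9.59 in control cells and 10.31, 10.20, 10.08 and 10.08 in cells labelled CASP1. The groups lay apart, by 0.53 ± 0.0871 (SE, adjusted p = 0.00039 in limma). With the mean of its 3 probe sets the difference was 0.212 and the adjusted p was 0.053. MRPL10 read 8.61, 8.72, 8.72 and 8.67 in control cells and 9.13, 8.91, 9.22 and 9.06 in cells labelled CASP1, a difference of 0.40 ± 0.0813 (SE, adjusted p = 0.0024 in limma).

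MRPL28 (0.40), MRPL35 (0.39), MRPL51 (0.32), MRPL18 (0.29) and MRPL39 (0.29) were also higher. The first 3 lost the call when single treated arrays were left out. MRPL28 lost it without replicate 2, 3 or 4 of control cells or replicate 3 of cells labelled CASP1, at 0.358 to 0.369. MRPL35 lost it without replicate 2, 3 or 4 of control cells or replicate 1 or 2 of cells labelled CASP1, at 0.274 to 0.386. MRPL51 lost it without replicate 3 or 4 of control cells or replicate 1 of cells labelled CASP1, at 0.24 to 0.302. With only the groups compared in the fit, MRPL35 and MRPL51 were not called either.

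MRPL1 was the lowest. It read 8.63, 8.70, 8.61 and 8.56 in treated control cells and 7.32, 8.06, 7.66 and 7.92 in treated cells labelled CASP1. The control arrays were close together and the others spread widely, all of them lower, by -0.89 ± 0.147 (SE, adjusted p = 0.00041 in limma), a 1.85-fold difference. Its dimmer probe set differed by -0.90 (adjusted p = 0.00025). MRPL20 read 10.35, 10.27, 10.22 and 10.26 in control cells and 9.53, 9.78, 9.75 and 9.67 in cells labelled CASP1, a difference of -0.59 ± 0.0969 (SE, adjusted p = 0.00037 in limma). With the mean of its probe sets it was -0.107 and was not called (adjusted p = 0.43). MRPL19, which bridges the subunits, read 9.56, 9.60, 9.67 and 9.61 against 9.41, 9.36, 9.13 and 9.21, a difference of -0.34 (adjusted p = 0.009 in limma). Its other probe set differed by 0.23, and the mean of both gave -0.0527 (adjusted p = 0.63). MRPL14 was lower by -0.32 (adjusted p = 0.047 in limma). This call was lost without any of 12 of the 16 arrays, at -0.358 to -0.277. It was also lost with a replicate block (-0.322), quantile normalization (-0.297), centring (-0.287) or only the groups compared in the fit.

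The untreated and treated line comparisons share no arrays, but their calls rest on the same residual spread per gene and are not independent. On their brightest probe sets, MRPL1, MRPL14, MRPL19 and MRPL20 were lower in both. That is 17.4% of the 23 lower members without treatment and 100% of the 4 with it. The dimmer probe set of MRPL19 differed by 0.0495 untreated and 0.23 treated, without a call. MRPL10 was higher in both, the only higher member without treatment and 12.5% of the 8 with it. No overlap over all genes is given beside these shares. Without replicate 3 or without replicate 4 of treated control cells 4 members were higher, while 6.23% and 6.3% of all genes were. Without replicate 1 or without replicate 2 of treated cells labelled CASP1 7 were lower, against 7.75% and 7.78% of all genes. With replicate 1 of all groups left out, 11 were higher and 9 lower, while 11.6% and 10.8% of all genes were. Of the 8827 genes at least as bright as the dimmest member, 1637 were higher and 1700 lower in that setting. Over all comparisons, 35 members had a called difference and 39 had none.

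**Figure D4:**
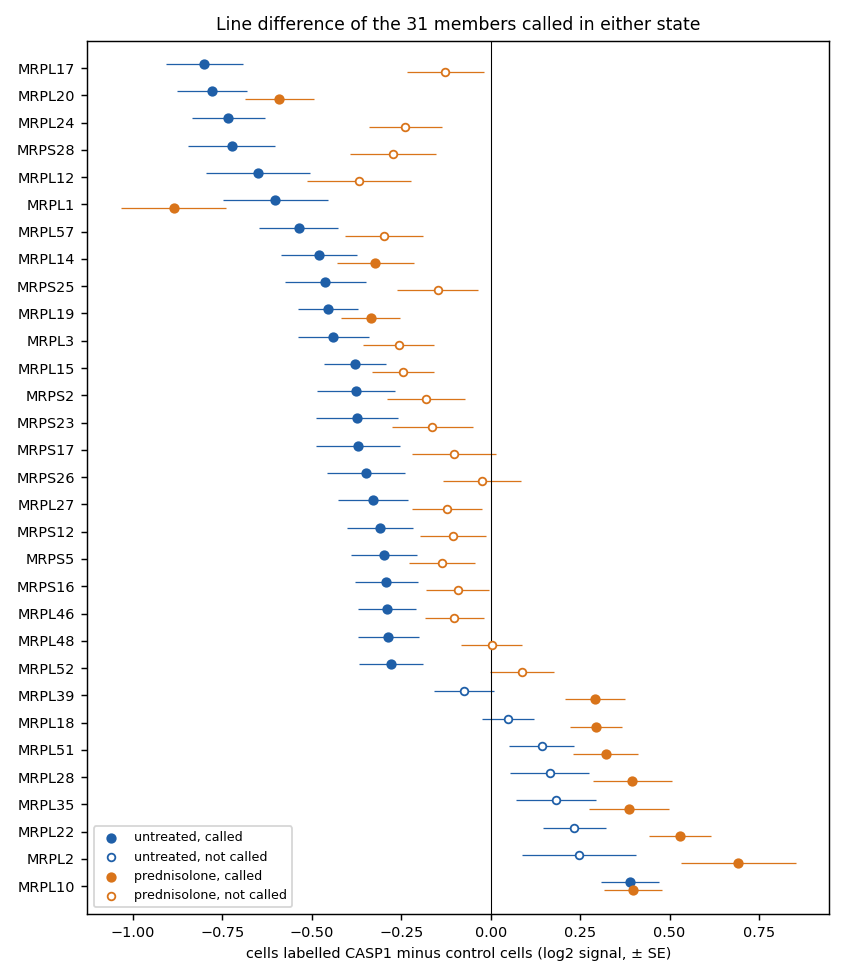
Cells labelled CASP1 minus control cells in log2 signal (x axis) for the 31 members called in either state (y axis), untreated (blue) and with prednisolone (orange), as fitted differences with standard errors; filled points had an adjusted p under 0.05 in limma. MRPL1, MRPL14, MRPL19 and MRPL20 are filled left of 0 in both states and MRPL10 right of 0 in both.

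The other proteins of mitochondrial translation were taken as lists from general knowledge. As a background to the counts below, 8.43% of all genes fell and 5.73% rose with prednisolone in control cells. In cells labelled CASP1 3.35% fell and 2.99% rose. With the CASP1 label 8.2% were lower and 5.87% higher untreated, and 8.52% and 7.88% treated. Among genes at least as bright as the dimmest member, 15.8% fell in control cells and 14.6% were lower in the untreated lines. No list was tested against these shares. Of 4 ribosomal subunits with other symbols, 2 fell with prednisolone in control cells, with a list median of -0.308. PTCD3 fell by 0.36 on the log2 scale (adjusted p = 0.005 in limma) and GADD45GIP1 by 0.41 (adjusted p = 0.045), a call lost without any of 12 of the 16 arrays and with quantile normalization (-0.366) or centring (-0.395). CHCHD1 differed by -0.25 (adjusted p = 0.07), and passed the test without replicate 1 of all groups (-0.326, adjusted p = 0.014) or of treated cells labelled CASP1, without the dimmest genes and with the mean of probe sets. None was called in the other comparisons by limma. At an unadjusted p under 0.05 1 of these 4 was lower with prednisolone in cells labelled CASP1. In the untreated lines 2 were lower, and in the treated lines 0 differed. At that threshold 1627 of all 18132 genes were lower with prednisolone in cells labelled CASP1 and 2412 in the untreated lines.

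Assembly factors build the ribosome from its RNAs and proteins. Of 24 measured, 5 fell and 0 rose with prednisolone in control cells. Without treatment, 9 were lower and 1 higher in cells labelled CASP1, with a median of -0.207. In cells labelled CASP1 2 fell and 1 rose with prednisolone, and in the treated lines 6 were lower and 3 higher. RBFA, which matures the small subunit RNA, fell most, from 8.36 to 7.58 in group mean, by 0.78 (adjusted p = 1.8e-05 in limma), and it fell by 0.48 in cells labelled CASP1 (adjusted p = 0.0054). METTL15, a methyltransferase of that RNA, fell by 0.51 in control cells (adjusted p = 0.00049), but its probe sets averaged -0.285, which was not called. MALSU1, which binds MRPL14 on the large subunit, fell by 0.41 (adjusted p = 0.00084).

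Mitochondrial aminoacyl-tRNA synthetases and partners load the transfer RNAs. Of 19, 5 fell and 1 rose in control cells, and without treatment 9 were lower and 0 higher in cells labelled CASP1, with medians of -0.104 and -0.159. In cells labelled CASP1 1 fell and 1 rose, and in the treated lines 6 were lower and 2 higher. FARS2 fell by 0.53 in control cells (adjusted p = 8.2e-05 in limma), NARS2 by 0.52 (adjusted p = 0.00035) and EARS2 by 0.50 (adjusted p = 0.0087), the last not called with the mean of its probe sets (-0.277). Of 15 translation factors, 2 rose and 1 fell in control cells, and 1 rose in CASP1-labelled cells. The lines differed in 1 factor, lower with the CASP1 label, without treatment and in 2 with it. MTIF3, an initiation factor, rose by 0.51 (adjusted p = 0.03), a call lost without replicate 1 of untreated or replicate 2, 3 or 4 of treated control cells, at 0.378 to 0.50, and when its probe sets were averaged (0.179, adjusted p = 0.61). SLIRP, which steadies mitochondrial messenger RNA, fell by 0.39 (adjusted p = 0.023), a call lost without replicate 1 of treated or replicate 2, 3 or 4 of untreated control cells, at -0.384 to -0.364, and with quantile normalization (-0.312) or centring (-0.371). MTRFR differed by -0.42 (adjusted p = 0.086), and passed the test without replicate 1 of all groups (-0.40, adjusted p = 0.0056), of treated control cells (-0.531) or of treated cells labelled CASP1.

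Genes that copy and transcribe mitochondrial DNA included 5 of 12 that fell in control cells, with a median of -0.237. In cells labelled CASP1 2 fell, and 5 were lower in the untreated and 4 lower and 1 higher in the treated line comparison. MGME1, a nuclease, fell by 0.48 (adjusted p = 2e-04 in limma), TWNK, the replicative helicase, by 0.48 (adjusted p = 0.02) and PNPT1, an RNA-degrading enzyme, by 0.45 (adjusted p = 0.015). The TWNK call was lost without replicate 1 of untreated or replicate 2, 3 or 4 of treated control cells, at -0.445 to -0.426, and that of PNPT1 with the mean of its probe sets (-0.168).

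Of 8 regulators of mitochondrial biogenesis, 3 fell in control and 2 in CASP1-labelled cells, and 3 and 2 were lower in the untreated and treated lines. MYC, a driver of ribosome and mitochondrial genes, fell from 12.25 to 11.13 in control and from 11.85 to 10.89 in CASP1-labelled cells. The differences were -1.12 (adjusted p = 5.1e-08 in limma) and -0.96 (adjusted p = 7e-07). PPRC1, a coactivator, fell by 0.66 in control cells (adjusted p = 0.011) and was lower by 0.94 in untreated cells labelled CASP1 (adjusted p = 0.00085). GABPA, which binds ETS cores, fell by 0.53 (adjusted p = 0.0038), but with the mean of its probe sets the difference was -0.186 and was not called. NRF1 (-0.01), PPARGC1B (0.14) and ESRRA (0.12) were not called, and NRF1 lay on the other side of 0 with centring on the 75th percentile.

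Mitochondrial stress genes included 5 of 10 that fell in control cells, with a median of -0.434, and 0 called in cells labelled CASP1, where 3 were lower at an unadjusted p under 0.05 (limma). In cells labelled CASP1 3 were lower without and 1 with treatment. The chaperones TRAP1 and HSPE1 both fell by 0.71 (adjusted p = 0.0027 and 0.00032), and DDIT3, a stress transcription factor, differed by -0.65 (adjusted p = 0.059). DDIT3 passed the test without the dimmest genes (adjusted p = 0.048), without replicate 1 of treated cells labelled CASP1, without replicate 2 of treated control cells (-0.758) and without replicate 3 of untreated control cells (-0.767). In the interaction 0 genes of these 7 lists were called by limma, and between 0 and 4 genes of each list were above 0 at an unadjusted p under 0.05. Without replicate 1 of all groups, 13.1% of all genes fell in control cells. Of the 8827 genes at least as bright as the dimmest member, 2124 fell in that setting. The falls were then 3 of 4 other subunits, 6 of 24 assembly factors and 6 of 19 synthetases. Also falling were 4 of 15 translation factors, 5 of 12 mitochondrial DNA genes, 3 of 8 regulators and 5 of 10 stress genes.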

How the data were processed

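Total RNA of 16 Nalm6 samples was hybridised to Affymetrix PrimeView arrays, with groups and replicate numbers from the labels. The deposited log2 signals are the authors' RMA values (per the submitters' processing notes), and the sources used here give no version. The number of arrays limits the precision. Of 49395 probe sets, those with 1 gene in the platform annotation were used, the brightest per gene, which gave 18132 genes with no filter on low values. limma 3.58.1 under R 4.3.3 fitted 4 group means on all 16 arrays (12 residual and 5.46 prior degrees of freedom), with two-sided moderated tests and Benjamini-Hochberg adjustment over all genes in each comparison. Calls were made at an adjusted p under 0.05. The fit was tested on simulated data. Antisense and shared probe sets were left out.

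The members, lists and tests were chosen with earlier results of these data known. Named were, in each comparison of groups, up to 6 called members with the largest rise and 6 with the largest fall whose groups did not overlap, in the interaction up to 4 called members, the member with the largest absolute difference, 6 regulators, MRPS18A, MRPS18B, MRPS18C, MRPS30, MRPS36, and from each list the 3 genes with the largest prednisolone difference in control cells. Alternatives were a replicate block, quantile normalization, centring on the 75th percentile, leaving out the dimmest 30% of genes, the mean of a gene's probe sets, fitting only the groups compared, and leaving out each array or replicate 1 of all groups. The list counts without replicate 1 were added after seeing the data. Some genes of the marker and companion lists are not reported here.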

Additional observations from a re-analysis of the deposited data

Results flagged for a closer look

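Each named gene was examined in each group of 4 arrays for an array far from the other 3. The gap to the nearest array, as a share of the group's range, had to pass Dixon's 95% critical value. Of 176 groups 18 qualified, and chance gives about 1 in 20. The values are log2 signals. Replicate 1 was the array apart for 14 of the 18.

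Among the members, MRPS6 read 7.937 on replicate 1 of treated cells labelled CASP1, above the other 3 at 7.36 to 7.426. MRPL12 read 8.167 (others 7.589 to 7.631) and MRPL28 10.44 (others 10.04 to 10.08) on replicate 1 of treated control cells. MRPL51 read 11.47 on replicate 1 of treated cells labelled CASP1 (others 11.13 to 11.17). MRPS18C was low on replicate 1 of untreated control cells, at 9.272 (others 9.592 to 9.612), and of treated control cells, at 9.163 (others 9.491 to 9.548). MRPL24 was high on replicate 4 of untreated control cells, at 8.998 (others 8.878 to 8.897), and low on replicate 4 of treated cells labelled CASP1, at 7.846 (others 8.152 to 8.206).

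Among the other genes, MTIF3 was low on replicate 1 of untreated control cells, at 8.566 (others 9.076 to 9.115), and of treated cells labelled CASP1, at 9.433 (others 9.999 to 10.07). PNPT1 read 8.942 on replicate 1 of untreated cells labelled CASP1 (others 9.324 to 9.385) and 9.412 on replicate 1 of treated ones (others 8.934 to 8.98). TRAP1 was high on replicate 1 of untreated control cells, at 9.602 (others 9.074 to 9.142), and of untreated cells labelled CASP1, at 9.287 (others 9.032 to 9.054). HSPE1 read 7.255 on replicate 1 of untreated control cells (others 7.456 to 7.479), and TWNK 7.724 on replicate 1 of treated control cells (others 7.182 to 7.238). MGME1 read 9.078 on replicate 3 of treated control cells (others 9.165 to 9.181), and GABPA 8.245 on replicate 2 of treated cells labelled CASP1 (others 7.939 to 7.962).

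The prednisolone difference of MRPL17 differed between the lines by 0.673, as tested with the interaction (adjusted p = 0.045 in limma), a call lost in 16 of 22 alternatives.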

How the results depend on the processing

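Over all alternatives, the single named genes gave 1218 values, of which 1109 kept their direction and their side of the threshold, 83 lost the call, 13 gained it and 13 changed sign. Members called higher and lower are given as pairs in this order. Prednisolone in control cells gave 0 and 16, with quantile normalization 1 and 15, without the dimmest genes 1 and 20, and without replicate 1 of all groups 2 and 30. Prednisolone in cells labelled CASP1 gave 0 and 2, with quantile normalization 1 and 2, without the dimmest genes 1 and 3, with only the groups compared 0 and 1, and without replicate 1 of all groups 1 and 6, with a median of -0.0674. The untreated lines gave 1 and 23, with quantile normalization 3 and 13, with centring 2 and 13, without the dimmest genes 2 and 23, with the mean of probe sets 2 and 20, and without replicate 1 of all groups 5 and 22. The treated lines gave 8 and 4, with only the groups compared 5 and 3, with the mean of probe sets 8 and 8, and without replicate 1 of all groups 11 and 9. The interaction gave 1 and 0, with quantile normalization, centring or the mean of probe sets 0, and without replicate 1 of all groups 3. The share of all genes called moved with the settings too. For falls in control cells it was 8.43%, and 7.63% with quantile normalization. It was 12.9% without the dimmest genes and 13.1% without replicate 1 of all groups. In cells labelled CASP1 3.35% fell, 5.52% without the dimmest genes, 1.79% with only the groups compared and 6.15% without replicate 1 of all groups. In the untreated lines 8.2% were lower, 7.36% with quantile normalization and 6.99% with centring. That share was 12.6% without the dimmest genes. In the treated lines 7.88% were higher and 8.52% lower, and 5.38% and 5.92% with only the groups compared.

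Leaving out single arrays gave 0 higher and 10 to 23 lower members for prednisolone in control cells (median -0.184 to -0.143). In cells labelled CASP1 the pairs were 0 to 1 and 1 to 3 (-0.0528 to 0.0273). They were 1 to 2 and 12 to 24 in the untreated lines (-0.166 to -0.093). In the treated lines they were 4 to 8 and 3 to 7 (-0.00542 to 0.0303), and in the interaction 0 to 2 and 0 to 0 (0.109 to 0.201). The 10 falls in control cells came without replicate 3 of treated control cells, where 6.54% of all genes fell. The 23 came without replicate 1 of treated cells labelled CASP1, where 10.3% fell. In the untreated lines the 12 lower members came without replicate 3 of untreated cells labelled CASP1, with 6.5% of all genes lower. The 24 came without replicate 1 of treated cells labelled CASP1, with 10.7% lower. The signs that changed belong to genes near 0 in control cells: MRPS18A with the mean of probe sets (-0.0963) and without single arrays (-0.0648 to 0.0853), or replicate 1 of all groups (-0.0123), MRPS30 with quantile normalization (0.0202) and without single arrays (-0.0987 to 0.051), and NRF1 with centring (0.00494) and without single arrays (-0.0503 to 0.0478). The cause was not tested.

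The replicate numbers were not taken to pair the samples, since not every pair of same-numbered arrays correlated above 0.1. Over 24 pairs of same-numbered arrays the correlation of deviations was -0.12 to 0.51, above 0.1 for 15, including all 6 pairs of replicate 1 (0.19 to 0.51), and 8 of 16 samples correlated best with their own number. With a replicate block the pairs were 0 and 21, 0 and 2, 3 and 23, 9 and 5, and 2 and 0 (MRPL17 and MRPL2) in the order above. Over all genes 7.1% were then higher and 10.4% lower, 3.94% and 4.65%, 7.58% and 10.1%, 10.5% and 10.5%, and 0.921% and 0.673%. With the block, MRPL14 was not called in the treated lines (-0.322, adjusted p = 0.052 in limma), and in control cells MTRFR (-0.422, adjusted p = 0.0028) and DDIT3 (-0.653, adjusted p = 0.037) were. Depth has no counterpart on arrays; 4 arrays a group limit what could be called.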
